A study of Mus musculus with 6 samples.

Results

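The calcium/calmodulin-dependent protein kinase (CaM kinase) genes of the adult mouse hippocampus were followed through 9 members chosen by name. They are the CaMKII subunit genes Camk2a, Camk2b, Camk2d and Camk2g, the CaMKII inhibitor genes Camk2n1 and Camk2n2, the nuclear kinase gene Camk4, and the CaM kinase kinase genes Camkk1 and Camkk2. All 9 were found by symbol among the 20620 genes of the deposited table, and all 9 were among the 20604 genes that passed the filter on low counts. The n-Braf group held 3 male mice of the genotype Braf Q241R/+ ;CaMKII-Cre, aged 33, 32 and 34 weeks. The control group held 3 male mice of the genotype Braf Q241R Neo/+, aged 32, 32 and 31 weeks. All 6 mice have a C57BL/6J background and carry 1 Braf allele with the Q241R substitution, which the series title links to cardio-facio-cutaneous syndrome, a developmental disorder of the RAS-ERK pathway. In the controls that allele still holds its Neo cassette. The genotype label of the n-Braf mice lists no Neo cassette and adds the CaMKII-Cre transgene. According to the design text, the mutant is meant to be expressed in mature excitatory neurons. Wild-type hippocampus and mice with Cre alone were not analysed here, so effects of Cre, of the cassette and of the mutant protein cannot be told apart. RNA came from hippocampus with no sorting step in the labels, and each library is 1 mouse. In such bulk samples, fewer cells of a type and less RNA per cell cannot be told apart.

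CaMKII is a large assembly of subunits that binds calmodulin when calcium enters the neuron, phosphorylates itself and then stays active for a time, and it is known for its role in long-term potentiation at hippocampal excitatory synapses. The alpha and beta subunits, from Camk2a and Camk2b, are the main forms of forebrain neurons, while the delta and gamma subunits are found in many tissues. The proteins of Camk2n1 and Camk2n2 bind active CaMKII and block it. CaMKIV, from Camk4, phosphorylates the transcription factor CREB in the nucleus and is itself switched on by the kinases of Camkk1 and Camkk2, of which the second also activates the energy sensor AMPK. The promoter of Camk2a is widely used to express Cre in excitatory forebrain neurons, and the label of the n-Braf mice names the transgene only as CaMKII-Cre. Camk2a is therefore both a member and the gene whose promoter is the likely driver of the genotype.

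No member passed the threshold of an adjusted p of 0.05 in edgeR's quasi-likelihood test, in which 0% of all genes tested were called in either direction. The members differed between the groups by little: 7 were higher and 2 lower in n-Braf. Their median log2 fold change was 0.13, beside a median of -0.0042 over all genes tested. Camkk2 had the smallest p, at 1.15-fold higher in n-Braf. The ratio of Camk2a to Camk2b was also higher in all 3 n-Braf libraries than in all 3 controls. Camk2d and Camk2n2 varied more between mice of the same group than between the groups.

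For the pair of CaM kinase kinase genes, which gave the smallest p and one of the 2 negative fold changes, the promoters are shown. They are RefSeq windows of 250 bases before to 50 bases after the gene start on GRCm38.p6, and 5 of the 9 members matched by symbol in the table of 32851 such windows, the pair and Camk2b, Camk2d and Camk2n2. The Camkk2 window lies at chr5:122779361-122779660 on the minus strand and the Camkk1 window at chr11:73018738-73019037 on the plus strand. Capitals mark the CCAAT box (CCAAT, or ATTGG on the other strand) and the half-site of the cyclic AMP response element bound by CREB (TGACG, or CGTCA on the other strand).
Camkk2 promoter: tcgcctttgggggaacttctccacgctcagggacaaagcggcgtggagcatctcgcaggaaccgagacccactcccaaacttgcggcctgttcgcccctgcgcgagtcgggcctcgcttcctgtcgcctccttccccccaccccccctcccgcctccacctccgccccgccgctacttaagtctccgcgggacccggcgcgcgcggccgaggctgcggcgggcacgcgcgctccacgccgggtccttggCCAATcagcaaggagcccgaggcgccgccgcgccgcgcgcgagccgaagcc
Camkk1 promoter: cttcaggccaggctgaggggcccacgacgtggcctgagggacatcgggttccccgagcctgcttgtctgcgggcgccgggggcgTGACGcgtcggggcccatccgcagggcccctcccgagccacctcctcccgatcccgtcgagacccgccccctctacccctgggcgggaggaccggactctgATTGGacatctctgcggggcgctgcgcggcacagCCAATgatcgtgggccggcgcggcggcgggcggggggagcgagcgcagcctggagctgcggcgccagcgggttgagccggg
The Camkk2 window holds CCAAT once, and the Camkk1 window holds it once on each strand, a motif present in 37.4% of all windows. The half-site TGACG is in the Camkk1 window and in 20.8% of all windows, and its letters are not in the Camkk2 window. The ETS core CCGGAA, with TTCCGG on the other strand, is in neither of the pair, nor in the windows of Camk2b, Camk2d and Camk2n2, and 14.9% of all windows hold it. The GC box GGGCGG, with CCGCCC on the other strand, is in the windows of all 5 and in 35.7% of all windows. Both windows are rich in G and C, at 73.3% for Camkk2 and 75.3% for Camkk1, beside a median of 52.7% over all windows. In the printed windows no match of one motif overlaps a match of another, and a match describes the sequence only.

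The coding sequences of the CaMKII inhibitor genes are shown because the paralogs share their core but differed in how they varied between libraries. They were joined from the GENCODE M21 exons on GRCm38. The Camk2n1 coding sequence of 237 bases spans chr4:138455186-138456788 on the plus strand, and that of Camk2n2, 240 bases long, spans chr16:20620173-20621194 on the minus strand. Capitals mark the longest run of bases that is identical in the alignment of both.
Camk2n1 coding: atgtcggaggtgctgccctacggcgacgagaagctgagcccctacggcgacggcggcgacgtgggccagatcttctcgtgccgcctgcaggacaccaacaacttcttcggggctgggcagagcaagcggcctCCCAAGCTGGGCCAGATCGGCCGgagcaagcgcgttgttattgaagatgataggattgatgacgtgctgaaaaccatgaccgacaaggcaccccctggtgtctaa
Camk2n2 coding: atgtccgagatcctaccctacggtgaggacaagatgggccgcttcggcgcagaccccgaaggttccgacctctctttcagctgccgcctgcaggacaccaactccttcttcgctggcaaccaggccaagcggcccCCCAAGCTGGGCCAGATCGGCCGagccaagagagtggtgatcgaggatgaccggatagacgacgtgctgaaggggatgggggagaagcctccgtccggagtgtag
Over 240 aligned columns 169 bases, or 70.4%, are identical, and the longest identical run is 23 bases. It lies within the part that codes for the kinase-blocking region.

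The n-Braf libraries held 30152839 to 31832245 assigned counts and the control libraries 25227112 to 27608256. Levels are in CPM, counts set to a common library total, after scaling by trimmed means of M values (TMM), and log2 fold changes are n-Braf over control with their standard error (SE). Of the 54 member values all were whole numbers, within 1e-06, but 2, those of Camk2b and Camk2g in control 3. Braf, the gene that the genotype alters, had 185, 184 and 205 CPM in n-Braf and 116, 123 and 116 CPM in controls, and its log2 fold change was 0.69 (SE 0.068, adjusted p = 0.0533 in edgeR's quasi-likelihood test). Even Braf thus did not pass the threshold of 0.05 in this test. The authors' deposited table gives Braf an adjusted p of 2.13e-08 from the same counts. Controls 1 and 2 stood apart in markers of the choroid plexus, the secretory epithelium of the ventricles. Its 9 tested markers of 12 summed to 22.8 to 36.3 CPM in n-Braf and, in controls 1, 2 and 3, to 2352, 1317 and 35.8 CPM. Defining markers of the labelled tissue were present: the sums of 5 CA1 pyramidal neuron markers were 343 to 368 CPM in n-Braf and 292 to 319 CPM in controls. The sums of 5 dentate granule neuron markers were 156 to 309 CPM in n-Braf and 207 to 261 CPM in controls. CA3 pyramidal neuron markers summed to 127 to 135 CPM in n-Braf and 121 to 139 CPM in controls, and GABAergic interneuron markers to 434 to 439 CPM in n-Braf and 373 to 446 CPM in controls. All 7 oligodendrocyte markers had a lower mean in n-Braf, and they summed to 1461 to 2009 CPM in n-Braf and 1723 to 2231 CPM in controls. The 5 tested of 7 ependyma markers summed to 14.9 to 18.7 CPM in n-Braf and 25.2 to 49.1 CPM in controls. The sums of astrocyte (859 to 923 CPM in n-Braf, 827 to 897 CPM in controls), microglia (72.1 to 95.8 CPM in n-Braf, 82.9 to 103 CPM in controls) and endothelium markers (111 to 124 CPM in n-Braf, 106 to 122 CPM in controls) overlapped. No tested marker of any list was at 0 in a library, and the part of cell makeup in the differences below was not tested beyond the fits with marker means as covariates.

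Camk2a encodes the alpha subunit and lies on the plus strand of chromosome 18, from 60925618 to 60988152 (GENCODE M21 gene coordinates, GRCm38). It had 2416, 2146 and 2904 CPM in n-Braf libraries 1, 2 and 3, against 2220, 2325 and 2120 CPM in the controls. The values of n-Braf 1 and n-Braf 3 were above every control and that of n-Braf 2 lay among the controls, so the groups overlapped. The means were 2489 ± 384 CPM in n-Braf and 2221 ± 102 CPM in controls (SD, n = 3 each), and the log2 fold change was 0.16 (SE 0.11, 95% interval -0.08 to 0.41, adjusted p = 0.849 in edgeR's quasi-likelihood test). Most of this difference came from 1 library: without n-Braf 3 the log2 fold change was 0.035, and without n-Braf 2 it was 0.26. Within n-Braf the order of Camk2a was also the order of age, with n-Braf 3 the oldest mouse at 34 weeks. Camk2b and the mean log2 level of the dentate granule neuron markers had the same order. Age and cell makeup therefore cannot be told apart in these 3 mice. With age as a covariate the sign turned, to -0.098. The groups shared only the age of 32 weeks, so such a fit can hardly separate age from genotype.

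Camk2b encodes the beta subunit, which also binds actin filaments, and lies on the minus strand of chromosome 11, from 5969644 to 6066362. It had 596, 569 and 757 CPM in n-Braf and 643, 666 and 617 CPM in controls. Again n-Braf 3 was above every control, while n-Braf 1 and 2 were below every control. The means were 640 ± 102 CPM in n-Braf and 642 ± 24.6 CPM in controls (SD, n = 3 each), and the log2 fold change was -0.0037 (SE 0.11, 95% interval -0.24 to 0.23, adjusted p = 0.998). The sign of so small a value was not fixed: it was positive under 8 of 23 other settings. The coefficient of variation of both genes was larger in n-Braf, at 15.4% for Camk2a and 15.9% for Camk2b, than in controls, at 4.61% for Camk2a and 3.84% for Camk2b.

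Camk2d, the gene of the delta subunit best known from heart muscle, lies on the plus strand of chromosome 3, from 126596302 to 126846326. Its values were 103, 69.9 and 42.9 CPM in n-Braf and 61.0, 42.9 and 78.1 CPM in controls. The highest library was 2.39 times the lowest, the widest range among the members, and the lowest value of each group was the same to 3 digits. The log2 fold change of 0.24 had an SE of 0.29 and a 95% interval of -0.42 to 0.91 (adjusted p = 0.937 in edgeR's quasi-likelihood test). Without n-Braf 1 it was -0.11 and without n-Braf 3 it was 0.50. It was 0.047 without control 2, 0.47 without control 3 and -0.12 without controls 1 and 2 together. Camk2g, the gamma subunit gene on the minus strand of chromosome 14, from 20734875 to 20794088, had 154, 167 and 156 CPM in n-Braf and 141, 140 and 169 CPM in controls. Control 3 was the highest of all 6 libraries and the other controls were the lowest. The log2 fold change was 0.085 (SE 0.083, 95% interval -0.10 to 0.27, adjusted p = 0.915). It was 0.18 without control 3, the highest library, and 0.048 without n-Braf 2. Without control 1 it was 0.042, without control 2 it was 0.039, and without controls 1 and 2 together it was -0.084. The fit without control 3 had an unadjusted p of 0.0444 and an adjusted p of 0.6854 in edgeR's quasi-likelihood test. It was the only 1 of 23 other settings with an unadjusted p under 0.05 for this gene.

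**Figure D1:**
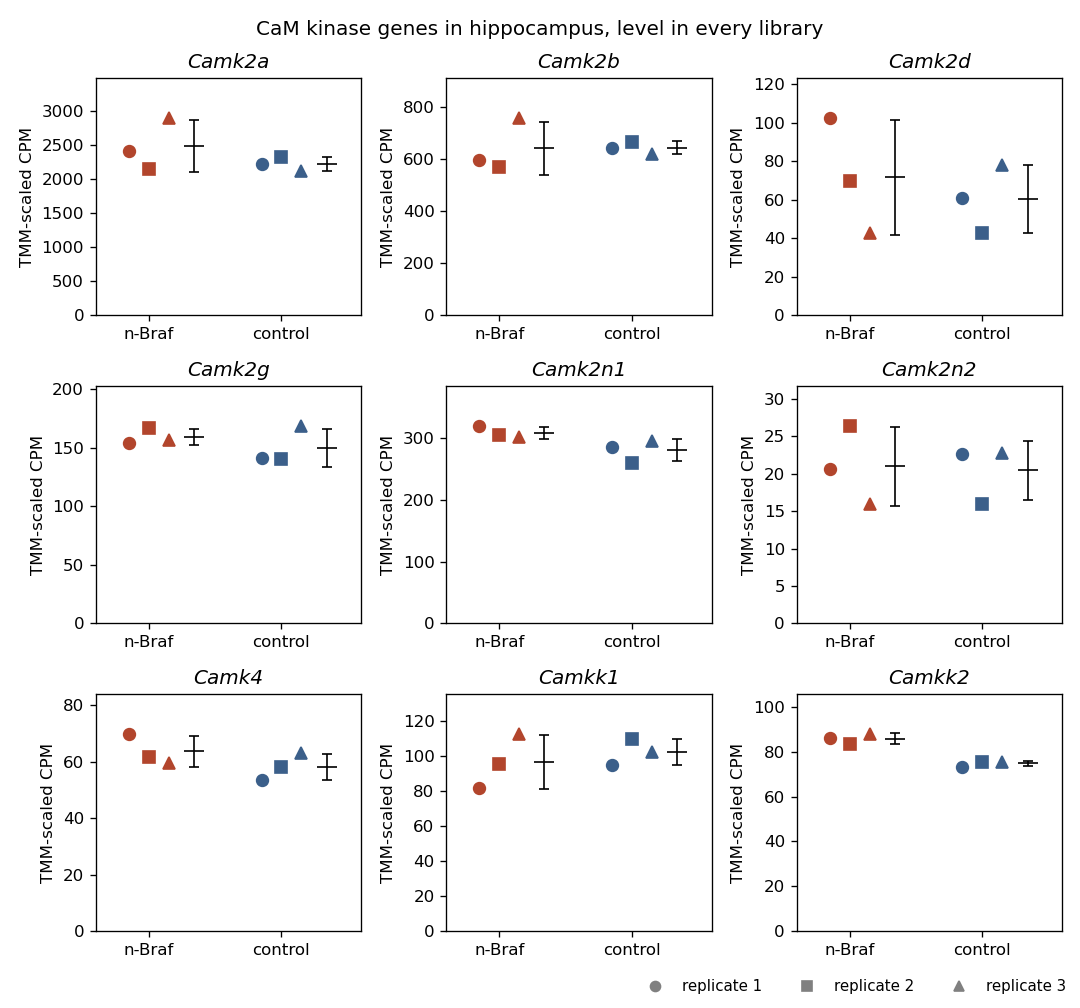
Level of each gene in TMM-scaled CPM (vertical axes, each starting at 0) in the 3 n-Braf and the 3 control libraries; symbols mark the replicate number and bars the mean ± SD. Camkk2 and Camk2n1 are the genes whose n-Braf libraries all lie above the controls, and Camk2d has the widest spread within groups.

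Camk2n1 encodes a brain-enriched inhibitor of CaMKII, and lies on the plus strand of chromosome 4, from 138454314 to 138460123. It had 320, 304 and 301 CPM in n-Braf and 286, 260 and 296 CPM in controls. All 3 n-Braf libraries were above all 3 controls, with a gap of a few CPM between n-Braf 3 and control 3. The means were 308 ± 9.93 CPM in n-Braf and 281 ± 18.5 CPM in controls (SD, n = 3 each), and the log2 fold change was 0.14 (SE 0.069, 95% interval -0.020 to 0.29, adjusted p = 0.783 in edgeR's quasi-likelihood test). Its value was positive in each of 23 other settings, between 0.060 and 0.18, and was lowest without controls 1 and 2 together. Without control 2 alone it was 0.084.

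Camk2n2, the less abundant inhibitor gene on the minus strand of chromosome 16, from 20619215 to 20621287, had 20.7, 26.4 and 15.9 CPM in n-Braf and 22.6, 15.9 and 22.8 CPM in controls. The groups covered nearly the same range. The log2 fold change was 0.039 (SE 0.19, 95% interval -0.40 to 0.48, adjusted p = 0.991), and its sign turned under 7 of 23 other settings. Leaving out 1 library gave -0.16 without n-Braf 2 to 0.20 without n-Braf 3. The annotation places the gene Gm49333 across its exons on the opposite strand. The library kit keeps strand, but the strand setting of the counting is not given in the sources used here, so reads of the overlapping genes may not be separated.

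Camk4 lies on the plus strand of chromosome 18, from 32934931 to 33191228, with 2310026I22Rik across its exons on the opposite strand. It had 69.8, 61.6 and 59.5 CPM in n-Braf and 53.4, 58.0 and 62.9 CPM in controls. The highest value was in n-Braf 1 and the lowest in control 1, and control 3 lay above n-Braf 2 and n-Braf 3. The means were 63.7 ± 5.46 CPM in n-Braf and 58.1 ± 4.72 CPM in controls (SD, n = 3 each), and the log2 fold change was 0.13 (SE 0.086, 95% interval -0.062 to 0.33, adjusted p = 0.844 in edgeR's quasi-likelihood test). This value was 0.058 without n-Braf 1, 0.074 without control 1 and 0.018 without controls 1 and 2 together, and it was -0.0005 with the choroid plexus markers and 0.22 with age as a covariate.

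Camkk2 encodes the CaM kinase kinase that acts on CaMKI, CaMKIV and AMPK, and lies on the minus strand of chromosome 5, from 122731170 to 122779409. It had 86.1, 83.4 and 87.9 CPM in n-Braf and 73.3, 75.5 and 75.4 CPM in controls. The 3 n-Braf libraries lay above the 3 controls, and both groups were tight. The means were 85.8 ± 2.27 CPM in n-Braf and 74.7 ± 1.22 CPM in controls (SD, n = 3 each), a 1.15-fold difference with a 95% interval of 1.05 to 1.25. The log2 fold change of 0.20 (SE 0.057) had an unadjusted p of 0.00639 and an adjusted p of 0.543 in edgeR's quasi-likelihood test over all genes. Across 23 other settings the log2 fold change lay between 0.15 and 0.22. The unadjusted p was under 0.05 in 19 of these settings, and the lowest adjusted p was 0.430, with DESeq2. In the other 4 the unadjusted p was 0.0780 with age, 0.0954 with the choroid plexus markers and 0.0896 with the excitatory neuron markers as a covariate, and 0.104 without controls 1 and 2 together, where the log2 fold change was 0.19. The authors' deposited table gives Camkk2 a log2 fold change of 0.20, a p of 0.0272 and an adjusted p of 0.852, from the same counts.

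Camkk1, on the plus strand of chromosome 11, from 73019008 to 73042073, encodes the related kinase kinase that activates CaMKI and CaMKIV. It had 81.9, 95.3 and 113 CPM in n-Braf and 95.2, 110 and 102 CPM in controls. The n-Braf libraries spanned the whole range of the controls and went beyond it on both sides. The log2 fold change was -0.084 (SE 0.11, 95% interval -0.33 to 0.17, adjusted p = 0.949), and it was 0.020 without n-Braf 1, the lowest library, and -0.21 without n-Braf 3.

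Counted together, 1 of the 9 members, Camkk2, was higher in n-Braf at an unadjusted p of 0.05, where 3.09% of all genes tested were, and 0 of the 9 were lower, against 3.73% of all genes. The groups were apart with n-Braf higher in Camkk2 and Camk2n1, against 6.09% of all genes, and apart with n-Braf lower in 0 members, against 5.44% of all genes. DESeq2 called 0 members at an adjusted p of 0.05, while it called 29 genes higher and 50 lower over the whole table. Limma-voom called 0 members and 0 genes over the whole table. An adjusted p below 0.05 is given to 29 genes in the authors' deposited table, and none of them is a member.

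**Figure D2:**
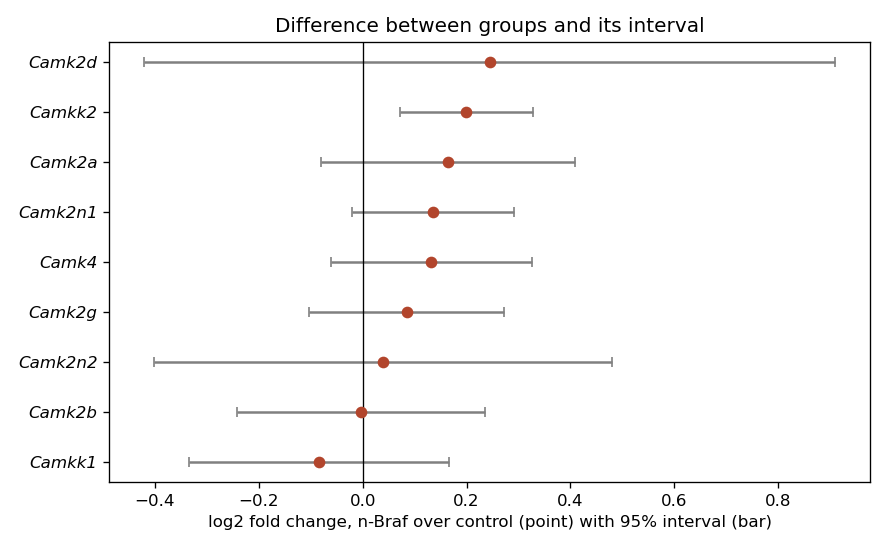
Log2 fold change of n-Braf over control for each gene (points, horizontal axis) with its 95% interval from edgeR's quasi-likelihood fit (bars), ordered by size. The interval of Camkk2, 0.072 to 0.33, is the only one that does not include 0, and the interval of Camk2d is the widest.

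Ratios within a library do not depend on its scaling, and 3 of them were compared by a 2-sided exact permutation test of the log2 ratio of expected counts, for which 3 libraries against 3 cannot give a p below 0.1. The ratio of Camk2a to Camk2b was 4.05, 3.77 and 3.84 in n-Braf and 3.45, 3.49 and 3.44 in controls. The 3 n-Braf libraries lay above the 3 controls, although the levels of both genes overlapped between the groups. The mean ratio was 3.89 ± 0.147 in n-Braf and 3.46 ± 0.0275 in controls (SD, n = 3 each), a log2 difference of 0.17 (exact permutation p = 0.1, 0.15 after Benjamini-Hochberg adjustment over the 3 ratios). Leaving out any 1 library gave log2 differences of 0.14 to 0.19, and leaving out controls 1 and 2 together gave 0.18.

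The ratio of Camkk2 to Camkk1 was 1.05, 0.875 and 0.779 in n-Braf and 0.770, 0.688 and 0.737 in controls. The groups were again apart, with n-Braf 3 just above control 1. The log2 difference was 0.29 (exact permutation p = 0.1, adjusted 0.15), and it ran from 0.18 without n-Braf 1 to 0.39 without n-Braf 3. The ratio of Camk2n1 to Camk2a, the inhibitor beside the main subunit, was 0.132, 0.142 and 0.104 in n-Braf and 0.129, 0.112 and 0.140 in controls. These overlapped, with a log2 difference of -0.016 (exact permutation p = 1, adjusted 1). It was 0.12 without n-Braf 3 and 0.056 without control 3.

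**Figure D3:**
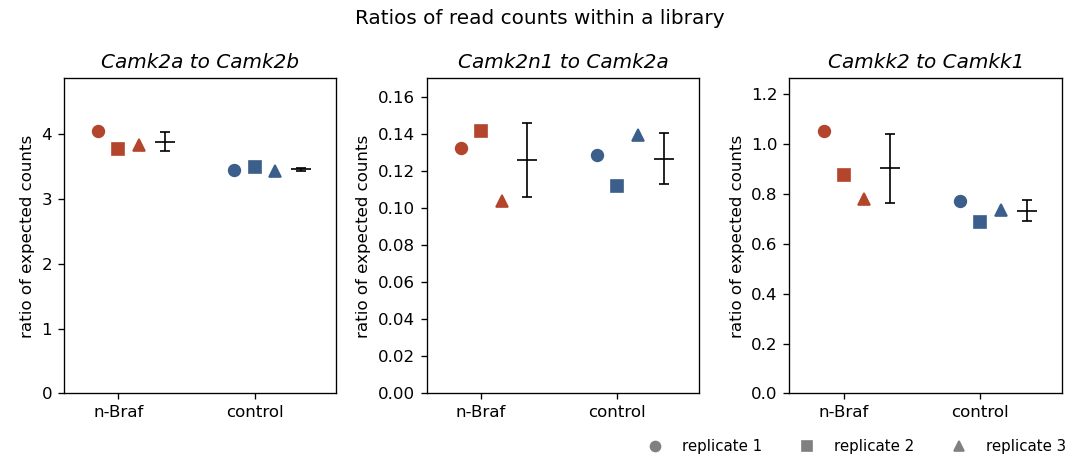
Ratios of expected counts within each library (vertical axes, each starting at 0) for 3 gene pairs in n-Braf and control libraries; symbols mark the replicate number and bars the mean ± SD. The Camk2a to Camk2b ratio is at 3.77 or above in the n-Braf libraries and at 3.49 or below in the controls.

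To compare levels between genes, CPM was divided by the exonic length of each gene in kilobases, and the order depends in part on that length. Camk2a led with 333 ± 51.5 CPM per kb in n-Braf and 298 ± 13.7 CPM per kb in controls. Camk2b followed with 70.2 ± 11.1 CPM per kb in n-Braf and 70.4 ± 2.70 CPM per kb in controls, close to Camk2n1 with 69.4 ± 2.24 CPM per kb in n-Braf and 63.1 ± 4.16 CPM per kb in controls. The ranges of Camk2b and Camk2n1 over the 6 libraries overlapped.

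Below these, Camkk1 was at 25.9 ± 4.16 CPM per kb in n-Braf and 27.5 ± 1.94 CPM per kb in controls, and Camk2g at 24.9 ± 1.09 CPM per kb in n-Braf and 23.5 ± 2.52 CPM per kb in controls. Camk4 was at 19.5 ± 1.68 CPM per kb in n-Braf and 17.8 ± 1.45 CPM per kb in controls, and Camk2n2 at 16.3 ± 4.07 CPM per kb in n-Braf and 15.8 ± 3.06 CPM per kb in controls. The ranges of Camkk1 and Camk2g overlapped, as did those of Camk4 and Camk2n2. Besides these pairs and that of Camk2b and Camk2n1, neighbours in this order were apart. Camkk2, at 7.86 ± 0.208 CPM per kb in n-Braf and 6.84 ± 0.112 CPM per kb in controls, and Camk2d, at 3.19 ± 1.33 CPM per kb in n-Braf and 2.70 ± 0.784 CPM per kb in controls, were last. With the length of the principal transcript, chosen as an alternative after the data were seen, Camk2b was at 155 CPM per kb in n-Braf and 156 CPM per kb in controls, and its range was then apart from that of Camk2n1, whose length did not change. In that order Camk2g came before Camkk1, and their ranges were apart. Camkk2 came before Camk2n2 in n-Braf but not in controls, but their ranges overlapped, so their order is not settled. The ranges of Camkk1 and Camk4, of Camk4 and Camk2n2 and of Camkk2 and Camk2d overlapped too. Camk2d stood at 13.0 CPM per kb in n-Braf and 11.0 CPM per kb in controls. Its annotated exons add up to 22493 bases, against 5524 bases in the principal transcript.

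Set against the sum of the 4 subunit genes per exonic length, Camk2a made up 77.1% ± 1.16 in n-Braf and 75.5% ± 0.937 in controls, and Camk2b 16.2% ± 0.531 in n-Braf and 17.9% ± 0.118 in controls (SD, n = 3 each). The Camk2b share was 15.6%, 16.4% and 16.6% in n-Braf, below the 18.0%, 17.9% and 17.7% of the controls, which restates the ratio to Camk2a. Camk2g made up 5.85% in n-Braf and 5.97% in controls, and Camk2d 0.765% in n-Braf and 0.689% in controls. With principal transcript lengths the shares were 70.2% in n-Braf and 68.3% in controls for Camk2a, and 21.8% in n-Braf and 23.8% in controls for Camk2b. Those of Camk2g were then 6.13% in n-Braf and 6.21% in controls, and those of Camk2d 1.88% in n-Braf and 1.69% in controls.

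Several members are set beside the neocortex and dentate granule neuron markers, library by library, as a description chosen after the values were seen. The values are log2 deviations of a gene, or the mean deviation of a marker list, from the mean over all libraries. Camk2d was at 0.70, 0.15 and -0.56 in n-Braf and at -0.047, -0.56 and 0.31 in controls. Camk2n2 was at 0.023, 0.37 and -0.36 in n-Braf and at 0.15, -0.36 and 0.16 in controls. The 8 neocortex markers, all tested, had a mean of 0.28, 0.26 and -0.25 in n-Braf and of -0.13, -0.28 and 0.12 in controls. All of these were lowest or next to lowest in n-Braf 3 and control 2, while in control 1 Camk2n2 was above its mean and the markers were below theirs. The neocortex markers summed to 238 to 351 CPM in n-Braf and 201 to 302 CPM in controls. With their mean as a covariate, the log2 fold change of Camk2d was -0.18 and that of Camk2n2 was -0.19, both the other way from the fit without it. With age as a covariate both were larger and positive, at 0.81 for Camk2d and 0.46 for Camk2n2, and Camk2b was at -0.25. In edgeR's quasi-likelihood test the unadjusted p was 0.0624 for Camk2d, 0.0384 for Camk2n2 and 0.0457 for Camk2b. The adjusted p was 0.7555, 0.7108 and 0.7253 in the same order. Because the groups shared only the age of 32 weeks, that fit can hardly separate age from genotype.

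Camk2b was at -0.10, -0.17 and 0.25 in n-Braf and at 0.011, 0.061 and -0.050 in controls, and Camkk1 at -0.27, -0.055 and 0.19 in n-Braf and at -0.056, 0.15 and 0.049 in controls. The 5 dentate granule neuron markers, all tested and all with a lower mean in n-Braf, had a mean deviation of -0.38, -0.54 and 0.37 in n-Braf and of 0.21, 0.28 and 0.052 in controls. Both genes and the markers were highest in n-Braf 3 and lowest in n-Braf 1 or 2, while in control 1 Camkk1 was below its mean and the markers were above theirs. With these markers as a covariate, a fit added after the data were seen, the log2 fold change was 0.15 for Camk2b, 0.042 for Camkk1 and 0.22 for Camkk2. Camk2a in that fit was at 0.32 (log2 fold change, unadjusted p = 0.00247, adjusted p = 0.612 in edgeR's quasi-likelihood test). With the 5 excitatory neuron markers as a covariate, which summed to 788 to 928 CPM in n-Braf and 739 to 787 CPM in controls, Camk2a was at -0.049 and Camkk2 at 0.15.

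**Figure D4:**
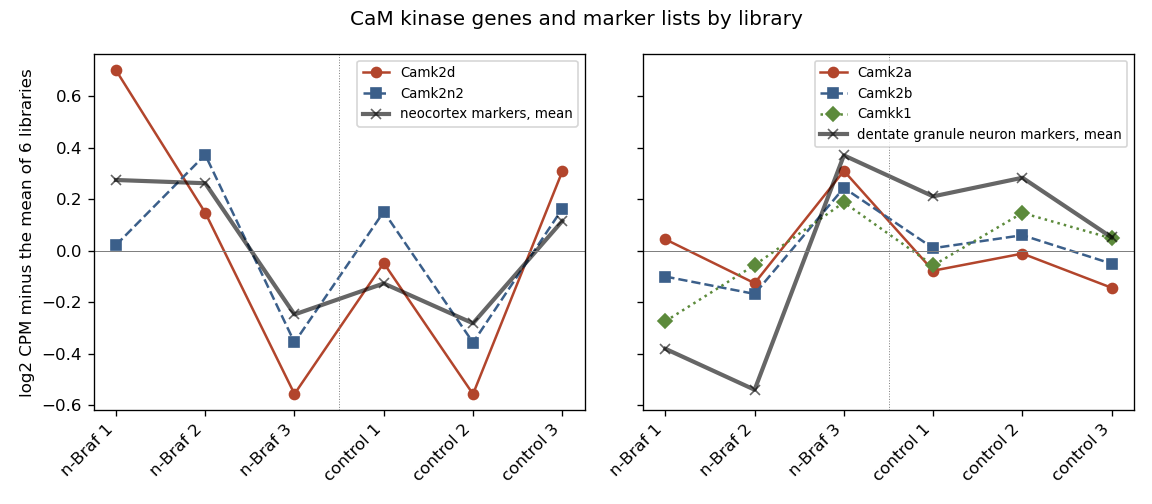
Log2 CPM minus the mean of the 6 libraries (vertical axis) for Camk2d and Camk2n2 with the neocortex marker mean (left) and for Camk2a, Camk2b and Camkk1 with the dentate granule neuron marker mean (right); lines only join the libraries and stand for no order. Camk2d and the neocortex markers are both low in n-Braf 3 and control 2, and Camkk1 and the dentate markers are both high in n-Braf 3. The dentate markers are lowest in n-Braf 2, where Camkk1 is near its mean, and in control 1 the markers are above their mean and Camkk1 is below its own.

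Likeness between genes was measured as the root mean square difference of these log2 deviations over the 6 libraries, with 3456 genes of at least 50 CPM as the pool. For Camk2a the nearest genes were Sema3e, a semaphorin guidance cue (0.028), Dgkz, a diacylglycerol kinase (0.035), and Prickle2, a planar cell polarity gene (0.039), beside a median of 0.156 over the pool. Sema3e had 66.3, 58.9 and 77.8 CPM in n-Braf and 59.3, 65.6 and 59.1 CPM in controls, with n-Braf 3 highest as in Camk2a. For Camkk2 they were Cyfip2, of the WAVE actin regulatory complex (0.019), Mapk10, the neuronal JNK kinase (0.023), and Hivep2, a zinc finger transcription factor (0.023), beside a median of 0.111. Among the members the nearest were Camk2n1 and Camkk2 (0.077), Camk2g and Camk2n1 (0.085), Camk2n1 and Camk4 (0.088) and Camk2a and Camk2b (0.090), and the farthest were Camk2d and Camkk1 (0.593). These are descriptions over the same 6 libraries, each gene sharing its library's depth and dissection.

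Genes around the kinases were described by lists, in which 0 genes passed an adjusted p of 0.05 in edgeR's quasi-likelihood test. Among 6 calmodulins and calmodulin-binding proteins, 6 were higher in n-Braf and 0 lower. The median of their log2 fold changes was 0.059, and the groups overlapped in every one. The 2 with the smallest p were Gap43, a growth cone protein that binds calmodulin, with 59.1 ± 17.6 CPM in n-Braf and 49.1 ± 3.74 CPM in controls, and the calmodulin gene Calm3, with 932 ± 86.5 CPM in n-Braf and 873 ± 20.3 CPM in controls. Gap43, like Camk2d, was highest in n-Braf 1, and it was lowest in n-Braf 3.

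Among 7 other CaM-dependent kinases and their relatives, 4 were higher and 3 lower, with a median of 0.042. Camk1g, which encodes the CaMKI gamma isoform and is a target of the CaM kinase kinases, had 17.5, 17.7 and 17.6 CPM in n-Braf and 11.1, 13.3 and 13.5 CPM in controls. The 3 n-Braf libraries were nearly alike and above every control. They rest on counts of 560, 564 and 516, and counting error was not separated from the spread between mice. Their likeness therefore does not measure how alike the mice were. The log2 fold change was 0.48 (SE 0.10, adjusted p = 0.527), and this was the largest in these lists. Camkv, a pseudokinase of the CaM kinase family found at synapses, averaged 406 ± 4.75 CPM in n-Braf and 373 ± 12.2 CPM in controls, also apart, for a log2 fold change of 0.12 (adjusted p = 0.775).

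Genes downstream of the kinases, and those of the enzymes that oppose them, were mixed in direction. Of 8 CREB factors and coactivators 4 were higher and 4 lower (median 0.0049), with Crebbp, the CREB-binding acetyltransferase, at 0.092 and Crtc3, a CREB coactivator, at 0.094. Of 9 phosphatase genes, those of calcineurin and of enzymes that dephosphorylate CaM kinases or their substrates, 5 were higher and 4 lower (median 0.065). In this list Ppp3cb, a calcineurin catalytic subunit, had a log2 fold change of 0.15 and Ppm1e, a CaM kinase phosphatase, of 0.14, and the groups overlapped in all 9. Of 7 genes of AMPK and its activator Stk11, 4 were higher and 3 lower (median 0.044). Prkaa2, the AMPK alpha 2 catalytic subunit, had 45.7, 41.7 and 40.1 CPM in n-Braf and 36.8, 35.6 and 37.6 CPM in controls, so the groups were apart (log2 fold change 0.21, SE 0.073, adjusted p = 0.644), while Prkag2, a regulatory subunit, was at 0.086.

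Among 13 binding partners and substrates of CaMKII at synapses, 12 were higher in n-Braf and 1, Actn2, was lower, beside 49.0% higher among all genes tested. The median of their log2 fold changes was 0.12. All 5 excitatory neuron markers and all 5 CA1 markers were higher in n-Braf too, with medians of 0.20 for both lists. All 6 GABAergic interneuron markers (median 0.093) and 7 of 8 neocortex markers (median 0.18) were higher as well. By contrast, all 5 dentate granule neuron markers were lower (median -0.32), and of 5 CA3 markers 2 were higher and 3 lower (median -0.0076). All 7 oligodendrocyte markers were lower, with a median of -0.29. The part of cell makeup in the synaptic list was not tested. Shank3, a scaffold of the postsynaptic density, had 209, 202 and 203 CPM in n-Braf and 177, 184 and 180 CPM in controls (log2 fold change 0.18, SE 0.057, adjusted p = 0.596). Dlg4, which encodes the scaffold PSD-95, had 487, 500 and 510 CPM in n-Braf and 434, 461 and 439 CPM in controls (log2 fold change 0.17, SE 0.061, adjusted p = 0.672). In both scaffold genes the n-Braf libraries lay above the controls. Grin2b, the NMDA receptor subunit to which active CaMKII binds, was named after its value was seen and was at 0.17 (SE 0.085), with groups that overlapped. The annotation places other genes across exons of Shank3, Grin2b, Camkv, Ppp3cb, Prkag2 and Stk11 on the opposite strand. It also places Ndufb2 across exons of Braf on the opposite strand.

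**Figure D5:**
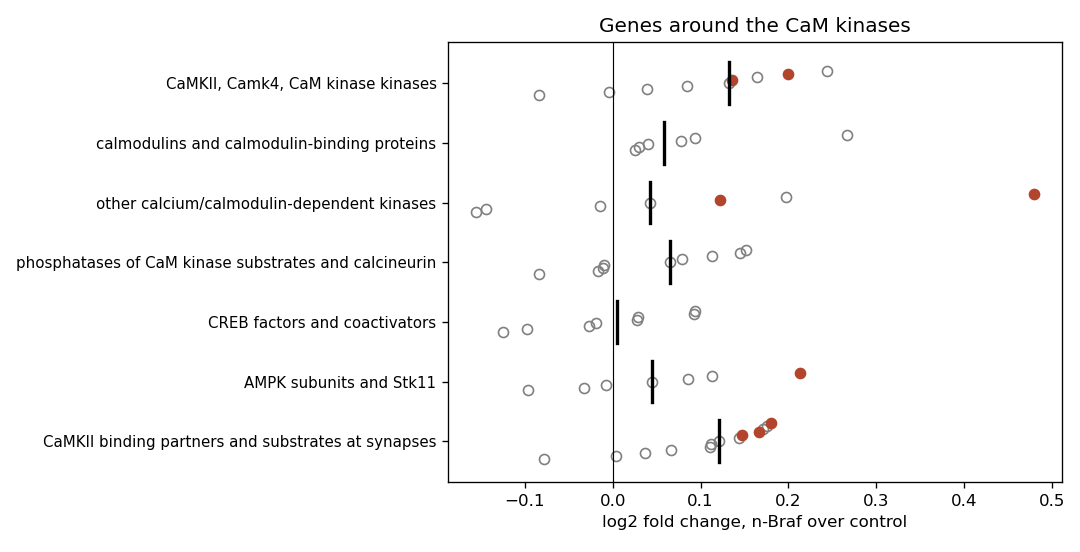
Log2 fold change of n-Braf over control (horizontal axis) for every gene of 7 lists (rows); filled points are genes whose 3 n-Braf libraries all lie above the 3 controls, open points overlap between groups, and black bars are list medians. The members and the synaptic partners have the highest medians, 0.13 and 0.12, and Camk1g is the point at 0.48.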

How the data were processed

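Hippocampal RNA of 6 mice was sequenced, 1 library per mouse, from 10.0 ng of total RNA with a strand-specific SMART-Seq kit, per the labels' protocols. The submitters' processing notes name bcl2fastq 2.20, fastp 0.20.1, STAR, RSEM, edgeR 3.36.0 and the build mm10. Not given in the sources used here are the versions of STAR and RSEM, the annotation release and the strand setting. The file deposited holds the expected counts per gene that the authors made, which are estimates and need not be whole numbers, and it lists no gene with very few counts. Further columns are the authors' log2 fold change per gene and the mean of log2 CPM. The authors' p-value and adjusted p-value come from the same deposited table.

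The expected counts were rounded, filtered with filterByExpr (minimum count of 10), scaled by TMM and tested with the quasi-likelihood test of edgeR 4.0.16 in R 4.3.3, with group as the only term, all 6 libraries and Benjamini-Hochberg adjustment over 20604 genes. The test was run on simulated data before use. Ratios used unrounded counts and exact permutation tests. In libraries of 25227112 to 31832245 counts the lowest count of a member was 425. Counting error was not separated from the spread between mice. The tight groups of Camkk2, with control counts of 1966, 2018 and 1937, therefore do not measure the variation between mice alone. Alternatives were other scalings, DESeq2 1.42.0, limma-voom (limma 3.58.1), other filters, covariates, a replicate block and leaving out libraries. Added after the data were seen were the dentate granule neuron covariate and the principal transcript length.

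The members and lists were chosen with earlier results of these data known. Named were all members, Braf, genes past the threshold and the 2 smallest p-values of each list, and the 3 genes most like Camk2a and Camkk2. The marker lists covered neurons (excitatory, CA1, CA3, dentate granule, GABAergic), neocortex, oligodendrocytes, astrocytes, microglia, endothelium, choroid plexus and ependyma. Protein sequences were not used here, and 1 gene of the lists is not reported here.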

Additional observations from a re-analysis of the deposited data

How the results depend on the processing

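No member was called under any of the alternatives run. Over all genes the quasi-likelihood test called 0 higher and 0 lower, against 29 higher and 50 lower with DESeq2. The counts were 1 higher without legacy settings, 1 higher and 1 lower with the neocortex or with the dentate markers as a covariate, 2 higher and 1 lower without controls 1 and 2 together, 1 higher without mitochondrial and ribosomal RNA genes, and 2 higher at an adjusted p of 0.1. Leaving out 1 library gave 0 to 6 genes higher and 0 to 76 lower, the upper ends without control 3. Among members the sign of the log2 fold change turned for Camk2a with age (-0.098) or the excitatory markers (-0.049) as a covariate. With the neocortex markers it turned for Camk2b (0.10), Camk2d (-0.18), Camk2n2 (-0.19) and Camkk1 (0.0095), and with the myelin markers for Camk2b (0.096), Camk2n2 (-0.0048) and Camkk1 (0.0032). With the choroid plexus markers it turned for Camk2b (0.029), Camk2d (-0.083), Camk2g (-0.082), Camk2n2 (-0.035) and Camk4 (-0.0005), and with the dentate markers for Camk2b (0.15), Camk2d (-0.25), Camk2n2 (-0.27) and Camkk1 (0.042). Without controls 1 and 2 together it turned for Camk2b (0.054), Camk2d (-0.12), Camk2g (-0.084) and Camk2n2 (-0.12). That fit assumes that the lone control 3 would vary as n-Braf mice do. Leaving out 1 library turned Camk2b (0.043 without n-Braf 1, 0.074 without n-Braf 2, 0.024 without control 2; range -0.14 to 0.074), Camk2d (-0.11 without n-Braf 1; range -0.11 to 0.50), Camk2n2 (-0.16 without n-Braf 2, -0.11 without control 2; range -0.16 to 0.20) and Camkk1 (0.020 without n-Braf 1; range -0.21 to 0.020). Ratios were run under 8 other settings only, a pseudocount and leaving out libraries, and with no covariate. Over these the Camk2n1 to Camk2a ratio had log2 differences of -0.16 to 0.12, at 0.12 without n-Braf 3 and 0.056 without control 3. The cause was not tested. Camkk2 and Camk2n1 kept their sign in each of 23 other settings. The Camk2a to Camk2b and Camkk2 to Camkk1 ratios kept theirs in the 8 settings run for ratios. In both genes and both ratios every n-Braf library lay above every control. Leaving out libraries therefore could not turn the sign of these ratios and could hardly turn that of these genes. The pseudocount was small beside the counts, so the kept sign of the ratios is no test of them.

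The deviations of same-numbered libraries had correlations of 0.103, -0.046 and -0.014, within the -0.123 to 0.155 of differently numbered libraries. With 3 mice per group these values cannot decide whether the numbers pair the mice. With the replicate block the log2 fold change of Camkk2 was 0.20 (unadjusted p = 0.0151, edgeR's quasi-likelihood test) and no member was called.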
